A study of Mus musculus with 18 samples.

Results

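Arc, Npas4, Nr4a1, Dusp1, Ier2, Gadd45b, Gadd45g, Btg2, Apold1 and Klf2 are immediate early and stress-inducible genes outside the Egr, Fos and Jun families. They were taken from the array by their annotated symbol, which gave 10 genes of 18194 and 13 probe sets of 45101. The arrays held frontal cortex, striatum and midbrain of male C57BL/6J mice aged 14 weeks. The MPTP groups had received 30 mg/kg of MPTP intraperitoneally, once daily for 5 days, and the saline groups received saline intraperitoneally over 5 days. In both, tissue was taken 4 days after the last injection. MPTP is a neurotoxin whose metabolite is taken up by dopaminergic neurons through the dopamine transporter. Each of the 6 groups had 3 arrays, and animals had been assigned to MPTP or saline at random, per the labels. The labels call the samples of a group biological replicates, numbered 1 to 3, but whether equal numbers in different regions stand for one mouse is not stated there.

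Immediate early genes are transcribed within minutes of a stimulus from factors already present in the cell, without new protein synthesis, and their messenger RNAs are short-lived. In neurons the stimulus is typically synaptic activity and calcium entry, acting on cyclic AMP response elements (CRE) and serum response elements near the start of the gene. In vessels, shear stress and hypoxia induce some of them. Their level in a dissected tissue therefore reflects the hours before death.

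All 10 genes had a lower mean in MPTP than in saline tissue in each of the 3 regions. Of all 11710 genes tested, 18.1% lay below saline in all 3 regions. The median log2 difference (MPTP minus saline) over the 10 genes was -0.58 (striatum), -0.36 (midbrain) and -0.27 (frontal cortex), while over all genes tested it was -0.03, 0.03 and 0.04. Gadd45g fell in striatum and in midbrain, and Gadd45g, Apold1, Klf2 and Btg2 fell on the mean over the 3 regions, at an adjusted p under 0.05 from limma with Benjamini-Hochberg adjustment over all genes tested. The remaining genes, Arc with the largest difference among them, did not pass the test in any MPTP contrast. Without the 3 MPTP arrays numbered 1, the calls of Klf2 and Btg2 on the mean and of Gadd45g within regions were lost (adjusted p = 0.103 and 0.207 on the mean for Klf2 and Btg2, limma), and Dusp1, Nr4a1, Ier2, Npas4 and Gadd45b lay above saline in frontal cortex. The mean differences of Arc, Nr4a1 and Dusp1 moved most without those arrays, Arc to -0.33, Nr4a1 to 0.01 and Dusp1 to -0.01. In bulk tissue, fewer cells of a type and less RNA per cell cannot be told apart.

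**Figure D1:**
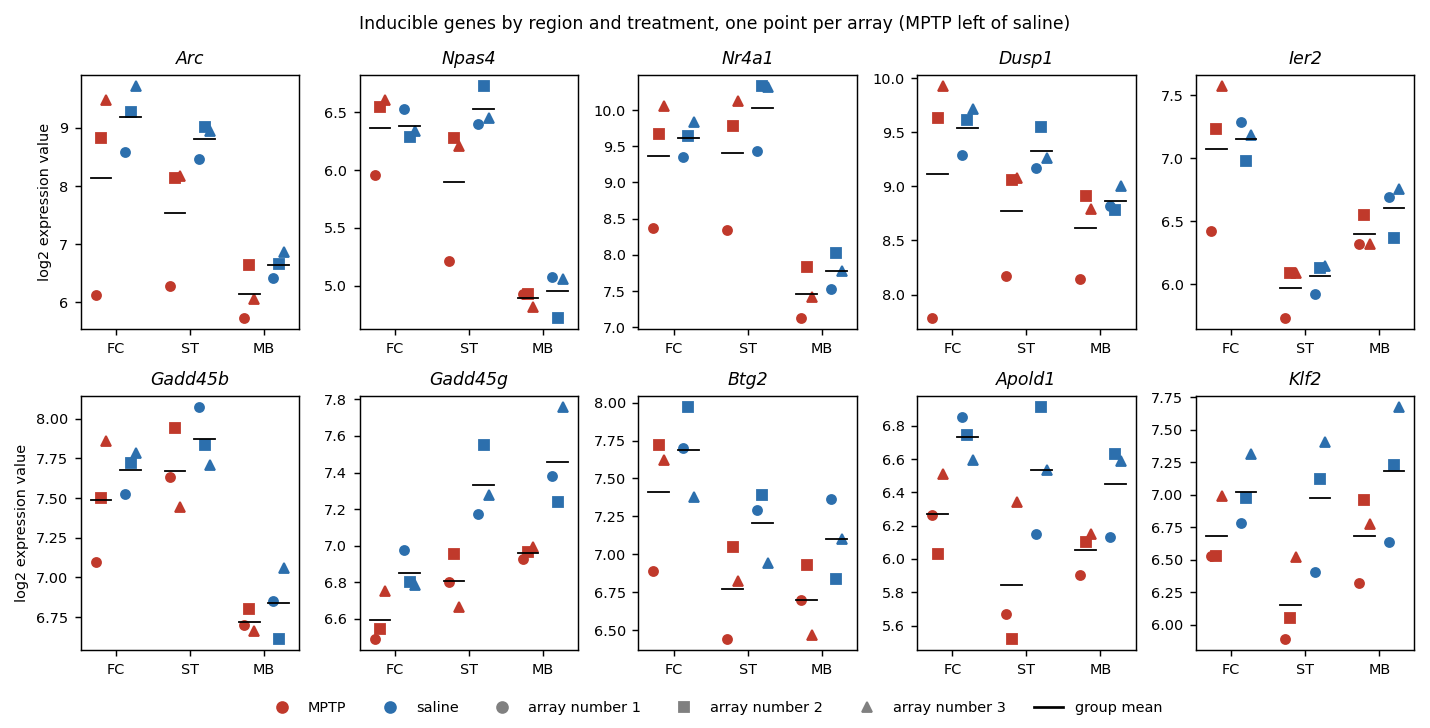
Deposited log2 expression value of each gene (vertical axis, a separate scale per panel) on every array, in frontal cortex (FC), striatum (ST) and midbrain (MB), with MPTP in red left of saline in blue, the array number as the symbol and the group mean as a line. The MPTP array numbered 1 (red circle) lies far below the other MPTP arrays for Arc, Nr4a1 and Dusp1 in frontal cortex and striatum, while the MPTP arrays of Gadd45g lie together below the saline arrays in each region.

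The tissue labels were borne out by defining markers. The striatal gene Gpr6 lay between 9.85 and 10.01 on MPTP and between 9.49 and 9.64 on saline striatum arrays, and between 3.10 and 4.02 elsewhere. The cortical glutamate transporter gene Slc17a7 lay between 10.23 and 10.58 on the frontal cortex arrays. It lay between 5.04 and 8.61 on striatum arrays and between 4.52 and 6.60 on midbrain arrays. In midbrain, Th, which encodes the rate-limiting enzyme of dopamine synthesis, was 8.10, 8.04 and 7.94 on MPTP arrays against 8.97, 8.92 and 8.64 on saline arrays. The groups did not overlap, but the difference of -0.82 did not pass the test (adjusted p = 0.133, limma). Array medians ran from 5.14 to 5.21, and replicates of a group correlated between 0.991 and 0.997 over all probe sets, a correlation across probe sets that are not independent replicates.

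Promoters are shown for the 4 genes that fell on the mean over regions and for Dusp1, whose values followed Arc across arrays, so that the elements usually discussed for inducible genes can be seen. Each run covers 250 bases before to 50 bases after the annotated gene start (RefSeq, GRCm38.p6), 5′ to 3′ on the strand of the gene. Capitals mark the CRE TGACGTCA, its half-site TGACG on either strand (CGTCA on the opposite one), TATAAA, and in Klf2 a match to the 10-base MEF2 motif.
Gadd45g (chr13:51846425-51846724, plus strand): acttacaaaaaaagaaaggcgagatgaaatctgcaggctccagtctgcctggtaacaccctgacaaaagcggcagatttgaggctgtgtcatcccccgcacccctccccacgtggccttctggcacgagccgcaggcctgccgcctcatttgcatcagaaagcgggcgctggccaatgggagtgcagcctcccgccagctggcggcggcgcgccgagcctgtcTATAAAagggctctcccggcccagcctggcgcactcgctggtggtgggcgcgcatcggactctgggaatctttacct
Apold1 (chr6:134981751-134982050, plus strand): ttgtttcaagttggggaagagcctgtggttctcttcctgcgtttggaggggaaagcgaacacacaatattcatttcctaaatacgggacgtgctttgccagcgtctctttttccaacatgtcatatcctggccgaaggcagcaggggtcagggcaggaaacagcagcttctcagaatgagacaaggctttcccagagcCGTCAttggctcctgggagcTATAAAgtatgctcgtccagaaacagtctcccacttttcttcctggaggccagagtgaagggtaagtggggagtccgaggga
Klf2 (chr8:72318812-72319111, plus strand): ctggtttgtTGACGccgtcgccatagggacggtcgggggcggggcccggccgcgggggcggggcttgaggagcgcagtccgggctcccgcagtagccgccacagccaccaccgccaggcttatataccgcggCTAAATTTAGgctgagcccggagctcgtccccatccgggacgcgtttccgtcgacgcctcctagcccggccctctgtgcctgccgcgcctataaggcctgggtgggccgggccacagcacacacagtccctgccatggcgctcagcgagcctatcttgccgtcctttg
Btg2 (chr1:134079106-134079405, minus strand): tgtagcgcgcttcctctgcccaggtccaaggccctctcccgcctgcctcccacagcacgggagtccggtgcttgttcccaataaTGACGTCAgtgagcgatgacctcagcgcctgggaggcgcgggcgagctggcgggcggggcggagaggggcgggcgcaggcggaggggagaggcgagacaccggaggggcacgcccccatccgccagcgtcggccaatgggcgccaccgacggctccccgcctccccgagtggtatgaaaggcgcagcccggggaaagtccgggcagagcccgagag
Dusp1 (chr17:26508423-26508722, minus strand): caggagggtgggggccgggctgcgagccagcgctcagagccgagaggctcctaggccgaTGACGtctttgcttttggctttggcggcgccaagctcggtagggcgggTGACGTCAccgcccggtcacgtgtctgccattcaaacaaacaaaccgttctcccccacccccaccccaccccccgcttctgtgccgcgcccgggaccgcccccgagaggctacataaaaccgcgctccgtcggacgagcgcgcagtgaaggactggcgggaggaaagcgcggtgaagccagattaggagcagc

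Of the 8 genes with an entry in the promoter table, 2 (Btg2 and Dusp1) held the full CRE, which occurs in 1.79% of 32841 promoters of the same length. The half-site TGACG, which is part of every full CRE, was present in 6 of the 8, against 20.8% of all promoters. Gadd45g, which fell in striatum and midbrain, held neither and had TATAAA, at position -27 from the start, an element found in 13.6% of promoters and in 3 of the 8. The MEF2 motif was found in Klf2 alone among the 8 (0.557% of all promoters), and the serum response factor motif CArG in none of them (1.63%). All motifs were searched on both strands, and a match describes letters in this window, not binding. The shares over all promoters were not matched for base composition. The runs shown held from 51.7% (Apold1) to 72.0% (Btg2) of G and C, and the part of this in the matches was not tested.

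The growth arrest and DNA damage inducible genes Gadd45g and Gadd45b encode small stress sensors that bind and activate a kinase of the p38 and JNK pathways. In striatum, Gadd45g was 6.80, 6.96 and 6.66 on MPTP arrays against 7.17, 7.55 and 7.28 on saline arrays. In midbrain it was 6.93, 6.96 and 6.99 on MPTP arrays against 7.38, 7.24 and 7.76 on saline arrays. In frontal cortex it was 6.49, 6.54 and 6.75 on MPTP arrays against 6.98, 6.80 and 6.78 on saline arrays. In each region every MPTP value lay below every saline value, though in frontal cortex only narrowly (6.75 against 6.78 at the nearest). Of all genes tested, 14.8% showed this in striatum, 5.18% in midbrain and 3.12% in frontal cortex. Gadd45g alone among the 10 genes showed it in all 3 regions, and the share of all genes that did so was not computed.

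The log2 difference of Gadd45g was -0.53 ± 0.13 (SE) in striatum (1.44-fold lower, adjusted p = 0.027, limma). It was -0.50 ± 0.13 in midbrain (1.41-fold lower, adjusted p = 0.0322). In frontal cortex it was -0.26 ± 0.13 and did not pass the test (adjusted p = 0.802). Gadd45g was the 1 gene of 10 called in striatum, where 2.11% of all genes tested were called in either direction and 0.811% as lower. It was also the 1 gene of 10 called in midbrain, where 2.54% of all genes were called and 0.384% as lower. Its mean over regions was -0.43 ± 0.07 (adjusted p = 0.000936). That value kept an adjusted p between 0.000206 and 0.0126 under every alternative in which Gadd45g was tested, and without the 3 MPTP arrays numbered 1 the difference was -0.40. The call in striatum and the call in midbrain were each lost on leaving out any 1 of 4 arrays. In striatum the adjusted p was 0.16 without saline array 2, 0.0665 without saline array 3, 0.0871 without MPTP array 1 and 0.116 without MPTP array 3. In midbrain it was 0.175 without saline array 3 and 0.107, 0.0743 and 0.148 without MPTP arrays 1, 2 and 3.

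Gadd45b did not pass the test in any region. Its striatal values were 7.63, 7.94 and 7.45 on MPTP arrays against 8.07, 7.83 and 7.71 on saline arrays, a difference of -0.20 ± 0.15 with overlapping groups. In midbrain they were 6.70, 6.80 and 6.67 on MPTP arrays against 6.85, 6.61 and 7.06 on saline arrays (difference -0.12), and in frontal cortex 7.10, 7.50 and 7.86 on MPTP arrays against 7.52, 7.72 and 7.78 on saline arrays (difference -0.19). The groups overlapped there too. The mean over regions was -0.17 ± 0.09 (adjusted p = 0.253, limma). A second Gadd45b probe set gave -0.27 ± 0.09 for the mean over regions when every probe set was tested on its own (adjusted p = 0.0859). The third probe set lay below the filter value of 5.195 on all arrays and gave 0.01 ± 0.08.

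**Figure D2:**
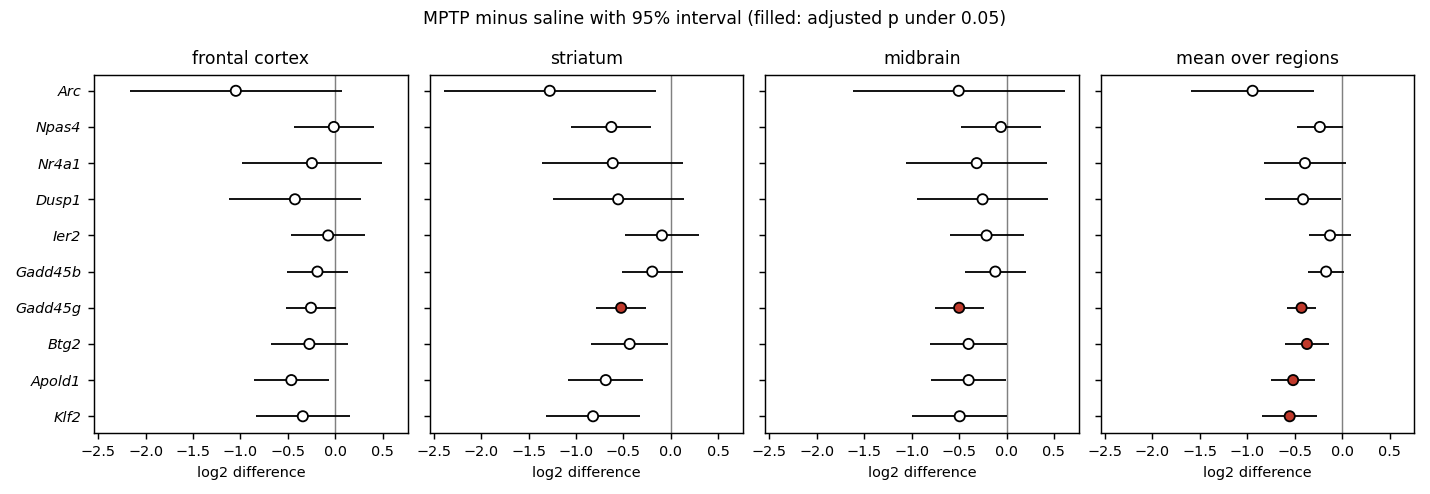
Log2 difference, MPTP minus saline, of each gene (horizontal axis) with its 95% interval from limma, in frontal cortex, striatum, midbrain and on the mean over the regions. Filled points have an adjusted p under 0.05: Gadd45g in striatum and midbrain, and Gadd45g, Btg2, Apold1 and Klf2 on the mean. All points lie below 0, and the intervals of Arc are the widest.

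Apold1 and Klf2 are both known from vessel walls: Apold1 is an endothelial immediate early gene, and Klf2 encodes a zinc finger transcription factor induced by shear stress. In striatum Apold1 was 5.67, 5.52 and 6.35 on MPTP arrays against 6.15, 6.91 and 6.53 on saline arrays. In midbrain it was 5.90, 6.10 and 6.15 on MPTP arrays against 6.13, 6.63 and 6.59 on saline arrays. In frontal cortex it was 6.26, 6.03 and 6.51 on MPTP arrays against 6.85, 6.75 and 6.60 on saline arrays. The groups separated in frontal cortex, and in either other region a single MPTP array lay above a single saline array.

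For Apold1 the log2 difference was -0.69 ± 0.19 in striatum (adjusted p = 0.0615), -0.40 ± 0.19 in midbrain (adjusted p = 0.298) and -0.46 ± 0.19 in frontal cortex (adjusted p = 0.754). On the mean over regions Apold1 fell by 0.52 on the log2 scale (SE 0.11, 1.43-fold lower, adjusted p = 0.00519, limma). Its adjusted p for that mean stayed between 0.000911 and 0.0369 under every alternative in which it was tested, and without the 3 MPTP arrays numbered 1 the difference was -0.46 (adjusted p = 0.0362). Its striatal difference reached an adjusted p of 0.0287 without striatum saline array 1, of 0.0386 without midbrain saline array 1 and of 0.0123 without striatum MPTP array 3.

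Klf2 in striatum was 5.89, 6.05 and 6.52 on MPTP arrays against 6.41, 7.12 and 7.40 on saline arrays. In midbrain it was 6.32, 6.96 and 6.78 on MPTP arrays against 6.63, 7.23 and 7.67 on saline arrays. In frontal cortex it was 6.53, 6.53 and 6.99 on MPTP arrays against 6.78, 6.97 and 7.31 on saline arrays. The groups overlapped in every region, and the array numbered 1 was the lowest, or level with the lowest to 2 decimals, of its 3 in all 6 groups. The log2 difference was -0.82 ± 0.24 in striatum (1.77-fold lower, adjusted p = 0.078), -0.49 ± 0.24 in midbrain and -0.34 ± 0.24 in frontal cortex. On the mean over regions Klf2 fell by 0.55 on the log2 scale (SE 0.14, 1.47-fold lower, adjusted p = 0.015, limma). Without striatum saline array 2 the adjusted p of that mean was 0.0565, and without the 3 MPTP arrays numbered 1 it was 0.103, with a difference of -0.42. In striatum the adjusted p of Klf2 was 0.0221 without striatum saline array 1 and 0.0363 without midbrain saline array 1, and in midbrain it was 0.0477 without midbrain saline array 1.

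Of 11 endothelial markers tested, 0 were called lower in any region or on the mean (limma), and 3 lay below 0 in each region and on the mean. The lower ones included Tek, an angiopoietin receptor gene, at -0.37 ± 0.14 in striatum (unadjusted p = 0.0129, adjusted p = 0.166, limma). They also included the VEGF receptor gene Kdr, at -0.29 ± 0.13 in midbrain (unadjusted p = 0.0311, adjusted p = 0.24, limma). Cldn5, a tight junction gene of brain endothelium, averaged 8.91 ± 0.34 in MPTP and 8.88 ± 0.22 in saline striatum (SD, n = 3 each). Pecam1, which encodes an endothelial adhesion protein, averaged 6.32 ± 0.22 in MPTP and 6.27 ± 0.10 in saline striatum. On the mean over regions 4 of the 11 rose (limma), where 6.62% of all genes did, with a median difference of 0.10 against 0.01 over all genes. Those 4 were Vwf, the glucose transporter gene Slc2a1, the organic anion transporter gene Slco1a4 and the VEGF receptor gene Flt1. The mean of the 11 genes per array ran from 7.33 to 7.66 in MPTP striatum and from 7.28 to 7.39 in saline striatum, and the part of endothelial cells in the values of Apold1 and Klf2 was not tested.

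Btg2 encodes an antiproliferative protein that recruits the deadenylase complex to messenger RNAs. Its striatal values were 6.44, 7.05 and 6.82 on MPTP arrays against 7.29, 7.39 and 6.94 on saline arrays. In midbrain they were 6.70, 6.93 and 6.47 on MPTP arrays against 7.36, 6.84 and 7.10 on saline arrays. In frontal cortex they were 6.89, 7.72 and 7.62 on MPTP arrays against 7.70, 7.97 and 7.38 on saline arrays. The groups overlapped in all 3 regions. The log2 difference was -0.44 ± 0.20 in striatum, -0.40 ± 0.20 in midbrain and -0.27 ± 0.20 in frontal cortex, and Btg2 fell by 0.37 on the mean over regions (SE 0.11, adjusted p = 0.0426, limma). This call had the largest adjusted p of the 4. It was lost on leaving out any 1 of 11 arrays, with adjusted p between 0.0531 and 0.164 (0.164 without striatum saline array 2), and without the 3 MPTP arrays numbered 1 the difference was -0.23 (adjusted p = 0.207). The second Btg2 probe set gave -0.29 ± 0.09 for the mean over regions (adjusted p = 0.0671 among all probe sets).

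Of the 10 genes, 4 were called on the mean over regions, where 9.05% of all genes tested were called in either direction and 2.43% as lower. At an unadjusted p under 0.05, 6 of the 10 lay lower on that mean, against 8.98% of all genes. In frontal cortex limma called 0 of the 10, where 0.0683% of all genes were called, and 1 of the 10 (Apold1) had an unadjusted p under 0.05, against 6.14% of all genes.

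Arc encodes a synaptic protein that promotes internalisation of AMPA receptors. In striatum Arc was 6.29, 8.14 and 8.17 on MPTP arrays against 8.47, 9.01 and 8.95 on saline arrays. In frontal cortex it was 6.13, 8.83 and 9.48 on MPTP arrays against 8.59, 9.27 and 9.72 on saline arrays. In midbrain it was 5.74, 6.64 and 6.06 on MPTP arrays against 6.42, 6.67 and 6.86 on saline arrays. The groups separated in striatum and overlapped in frontal cortex and midbrain, and the MPTP array numbered 1 was the lowest in each region. The log2 difference was -1.28 ± 0.54 in striatum (2.42-fold lower), -1.05 ± 0.54 in frontal cortex and -0.50 ± 0.54 in midbrain. On the mean over regions it was -0.94 ± 0.31, just outside the threshold (adjusted p = 0.0589, limma). Leaving out any 1 of 5 arrays (frontal cortex saline 1, midbrain saline 1, frontal cortex MPTP 3, striatum MPTP 2 or striatum MPTP 3) brought it to between 0.0158 and 0.0477. Without the 3 MPTP arrays numbered 1 the mean was -0.33 (adjusted p = 0.175), and the frontal cortex difference was -0.04.

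Npas4, a neuronal transcription factor induced by calcium entry, separated the groups in striatum. It was 5.21, 6.28 and 6.21 on MPTP arrays against 6.40, 6.73 and 6.45 on saline arrays. The difference was -0.63 ± 0.20 (adjusted p = 0.108, limma), with an adjusted p of 0.0409 without striatum MPTP array 2. In frontal cortex it was 5.96, 6.54 and 6.61 on MPTP arrays against 6.53, 6.29 and 6.34 on saline arrays, with 2 of the 3 MPTP arrays above all saline arrays and a difference of -0.02. In midbrain Npas4 lay below the filter value of 5.195 on all 6 arrays, from 4.81 to 4.93 in MPTP and from 4.72 to 5.07 in saline midbrain, so its midbrain values carry little information.

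Nr4a1, an orphan nuclear receptor, was 8.34, 9.78 and 10.12 on MPTP striatum arrays against 9.43, 10.33 and 10.32 on saline striatum arrays. Dusp1, a phosphatase that inactivates MAP kinases, was 8.18, 9.06 and 9.08 on MPTP striatum arrays against 9.17, 9.55 and 9.26 on saline striatum arrays. The groups overlapped for Nr4a1 and separated for Dusp1. The striatal differences were -0.61 ± 0.36 for Nr4a1 and -0.56 ± 0.33 for Dusp1 (adjusted p = 0.414 and 0.43, limma). In frontal cortex Dusp1 was 7.79, 9.63 and 9.93 on MPTP arrays against 9.29, 9.61 and 9.72 on saline arrays, so that MPTP array 2 lay within the saline range, array 3 above it and array 1 far under it. Nr4a1 showed the same layout there, with 8.38, 9.67 and 10.05 on MPTP arrays against 9.36, 9.64 and 9.84 on saline arrays. In midbrain Dusp1 was 8.15, 8.91 and 8.79 on MPTP arrays against 8.82, 8.78 and 9.01 on saline arrays. Nr4a1 in midbrain was 7.13, 7.83 and 7.42 on MPTP arrays against 7.52, 8.03 and 7.78 on saline arrays. The groups overlapped, and array 1 was again the lowest of the MPTP arrays for both. The mean over regions was -0.39 ± 0.21 for Nr4a1 and -0.41 ± 0.19 for Dusp1 (adjusted p = 0.251 and 0.192, limma).

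Ier2, an immediate early gene encoding a nuclear protein, had the smallest mean difference of the 10, -0.13 ± 0.11 over the regions (adjusted p = 0.509, limma). Its striatal values were 5.74, 6.09 and 6.09 on MPTP arrays against 5.93, 6.13 and 6.14 on saline arrays. In frontal cortex they were 6.42, 7.23 and 7.57 on MPTP arrays against 7.29, 6.97 and 7.19 on saline arrays. In midbrain they were 6.32, 6.55 and 6.32 on MPTP arrays against 6.69, 6.37 and 6.75 on saline arrays. The groups overlapped in all 3 regions.

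Counting the genes whose 3 MPTP values all lay below all 3 saline values, striatum had 4 of 10 (Arc, Npas4, Dusp1 and Gadd45g), against 14.8% of all genes tested. Midbrain had 1 of 10 (Gadd45g), against 5.18%, and frontal cortex had 2 of 10 (Apold1 and Gadd45g), against 3.12%.

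The MPTP arrays numbered 1 stood low for these genes. In frontal cortex the MPTP array 1 was the lowest of its 3 for 9 of 10 genes, all but Apold1, against 47.5% of all genes tested. In striatum this held for 7 of 10 against 21.2%, in midbrain for 6 of 10 against 27.5%, and in all 3 regions for 4 of 10 (Arc, Nr4a1, Dusp1 and Klf2) against 3.02%. Against the mean of its group, the median deviation over the 10 genes on MPTP array 1 was -0.47 (frontal cortex), -0.30 (striatum) and -0.11 (midbrain). Array number 1 was also the lowest of 3 in all 3 saline groups for Arc, Nr4a1 and Klf2, which made these the lowest on array 1 in all 6 groups, as for 15 of 11710 genes (0.128%). The comparison by array number was made after the values were seen.

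**Figure D3:**
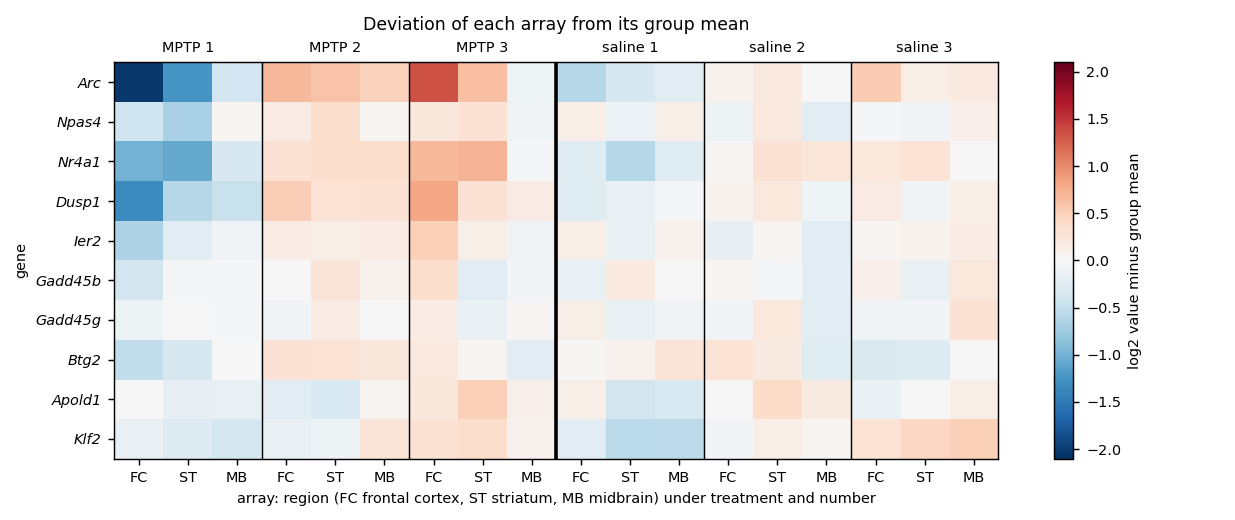
Log2 value of each gene minus the mean of its own group, for every array (columns, by treatment and number, with frontal cortex, striatum and midbrain within each), blue below and red above the group mean. The frontal cortex and striatum columns of MPTP number 1 are blue for Arc, Npas4, Nr4a1, Dusp1, Ier2 and Btg2, and the row of Gadd45g is pale throughout.

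Without the 3 MPTP arrays numbered 1, limma called 0 of the 10 genes in each single region. Of all 11710 genes it called 52 in striatum, 184 in midbrain and 0 in frontal cortex. On the mean over regions it called 2 of the 10, Gadd45g and Apold1, and 601 of all genes. The mean over regions was then -0.01 for Dusp1, 0.01 for Nr4a1 and 0.03 for Ier2. In frontal cortex Dusp1, Ier2, Npas4, Nr4a1 and Gadd45b lay above 0, from 0.005 for Gadd45b to 0.25 for Ier2. Gadd45g was -0.52 in striatum, -0.48 in midbrain and -0.20 in frontal cortex, against -0.53, -0.50 and -0.26 with all 18 arrays, and of the 10 genes it moved least in striatum and on the mean over regions. In midbrain Btg2 (-0.40 in both) and Gadd45b (-0.11, against -0.12 with all arrays) moved less than Gadd45g, and so did Apold1 in frontal cortex (-0.46 in both). With the arrays of a treatment and number averaged over the regions into 1 value, limma called 3 of the 10 genes. These were Gadd45g (adjusted p = 0.00194), Apold1 (0.0109) and Klf2 (0.0463), while Btg2 lost its call (0.0539). The share of all genes called under that setting is not given here, so the 3 cannot be set against it.

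**Figure D4:**
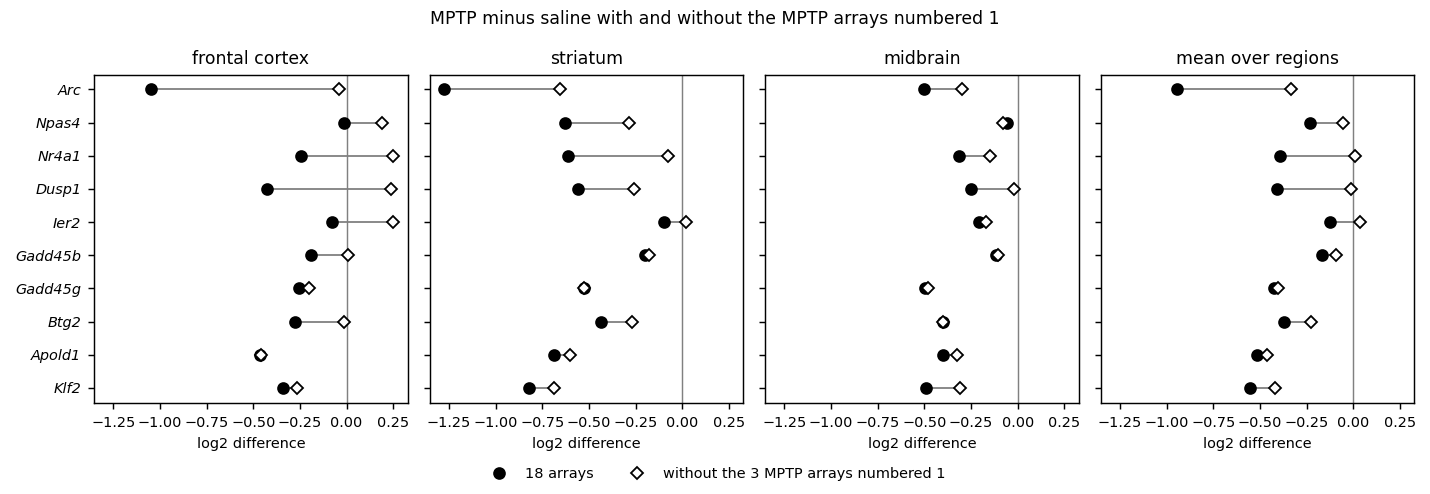
Log2 difference, MPTP minus saline, of each gene with all 18 arrays (filled circles) and without the 3 MPTP arrays numbered 1 (open diamonds), in frontal cortex, striatum, midbrain and on the mean over regions. On the mean over regions Arc, Nr4a1 and Dusp1 move furthest, Nr4a1 just past 0, and Gadd45g moves least.

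Other values of the same array differed too. On the striatum MPTP array 1 the mean of 9 cortical glutamatergic marker genes was 6.43, against 7.08 and 7.26 on the other MPTP striatum arrays and 7.10 to 7.56 on saline striatum arrays. Slc17a7 was 5.04 on that array, against 7.45 and 8.0 on the other MPTP arrays and 7.50 to 8.61 on saline arrays. The part of cortical tissue in the striatal differences of Arc, Npas4 and Nr4a1 was not tested. In frontal cortex the same markers ran from 9.0 to 9.14 on MPTP arrays and from 8.92 to 8.99 on saline arrays, with 9.0 on MPTP array 1. The log2 difference between 3′ and 5′ probe sets of Gapdh, a sign of RNA integrity, was 0.10 on frontal cortex MPTP array 1, the highest of the 18 arrays, against -0.06 and -0.01 on the other MPTP arrays and -0.08 to -0.01 on saline arrays of that region. That of Actb was 0.45 on the same array, against 0.44 and 0.56 on the other MPTP arrays and 0.43 to 0.55 on saline arrays. The part of RNA integrity in the low values of that array was not tested. In striatum the Gapdh difference ran from -0.09 to 0.00 in MPTP and from -0.07 to -0.03 in saline tissue, and that of Actb from 0.38 to 0.45 in MPTP and from 0.43 to 0.46 in saline tissue. Of the glial markers in striatum, 4 of 9 astrocyte, 4 of 8 microglia and 5 of 7 oligodendrocyte genes were called higher and 0 lower (limma), where 1.3% of all genes were called higher. On the mean over regions 4 of 9 astrocyte, 6 of 8 microglia and 2 of 7 oligodendrocyte genes were called higher and 0 lower, against the same 6.62% of all genes. The mean of the microglia genes per array ran from 8.87 to 9.20 in MPTP striatum and from 8.57 to 8.69 in saline striatum, that of the astrocyte genes from 9.91 to 10.19 in MPTP and from 9.61 to 9.79 in saline striatum, and that of the oligodendrocyte genes from 10.99 to 11.05 in MPTP and from 10.56 to 10.60 in saline striatum. The part of glial cells in the lower values of the 10 genes was not tested either.

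The genes varied together across arrays. Over the 18 arrays, after subtraction of group means, 42 of the 45 pairs among the 10 genes had a positive Pearson correlation, with a median of 0.50 and a range from -0.30 (Gadd45b and Apold1) to 0.97 (Arc and Dusp1). Arc, Nr4a1, Dusp1 and Ier2 formed the tightest set, with correlations from 0.73 to 0.97. With these 4 genes Gadd45g correlated less closely, at 0.19 with Nr4a1, 0.25 with Arc, 0.32 with Dusp1 and 0.51 with Ier2. Apold1 was at 0.20 with Ier2, 0.24 with both Arc and Dusp1 and 0.48 with Nr4a1. These values share the 18 arrays, and the low MPTP array 1 enters each of them.

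Among the genes tested, with predicted genes passed over, those most like Arc in this measure were Dusp1 (0.97), the clock-associated gene Ciart (0.96) and Csrnp1 (0.94). Ciart rose on the mean over regions, by 0.31 ± 0.09 (adjusted p = 0.0385, limma), with 7.0, 7.56 and 7.38 on MPTP and 6.76, 6.87 and 6.85 on saline striatum arrays, so that likeness across arrays within groups did not go with the same direction between groups. Nr4a1 was most like Arc (0.92), Junb (0.91) and Tiparp (0.89), and Dusp1 most like Arc, Csrnp1 (0.93) and Phf13 (0.93). Klf2 was most like the clock gene Per1 (0.93), the glucocorticoid-induced kinase gene Sgk1 (0.91) and Spring1 (0.88).

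Per1 and Sgk1 shared the low values of Klf2 on array 1. Sgk1 in midbrain was 9.42, 10.39 and 10.46 on MPTP arrays against 9.06, 10.03 and 11.06 on saline arrays. Per1 in midbrain was 6.75, 7.16 and 6.95 on MPTP arrays against 6.64, 7.32 and 7.56 on saline arrays. In both genes array 1 was the lowest in either group, and the mean over regions of Per1 was -0.13 ± 0.14 (adjusted p = 0.607, limma). Npas4 was most like Rpl39, Grin2a and Tbc1d30, Ier2 most like Nfyc, Egr2 and Dusp1, and Gadd45b most like Trim13, Pld3 and Psd4. Gadd45g was most like Slc7a2 (0.89), Rbm15 and Mettl23, Btg2 most like Asb1, Slc2a8 and Krt78, and Apold1 most like Pvalb (0.85), Slc30a3 and Cds1.

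No difference in response between regions passed the test for any of the 10 genes. For striatum minus frontal cortex response limma called 0 of the 10 (0.0598% of all genes), with 1 of them, Npas4, at an unadjusted p under 0.05 against 7.77% of all genes (difference -0.61, 95% interval -1.21 to -0.02, adjusted p = 0.631). For midbrain minus frontal cortex response it called 0 of the 10 (0.0% of all genes), and for midbrain minus striatum response 0 of the 10 (0.0683%), with 0 at an unadjusted p under 0.05 in either, against 4.98% and 5.9% of all genes. The interval was wide for Arc, from -0.80 to 2.35 for midbrain minus striatum. For Gadd45g it was narrower, from -0.34 to 0.39 for midbrain minus striatum and from -0.64 to 0.10 for striatum minus frontal cortex. Equal responses in the regions are therefore not shown.

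The saline arrays show where each gene is normally high. Between midbrain and frontal cortex 7 of the 10 genes were called, where 51.5% of all genes were. Arc was lower in saline midbrain, at 6.65 ± 0.22, than in saline frontal cortex, at 9.19 ± 0.57 (SD, n = 3 each), which is 5.83-fold (adjusted p = 0.000341, limma). Nr4a1 (3.57-fold), Npas4 (2.70-fold), Gadd45b (1.78-fold), Btg2 (1.5-fold) and Ier2 (1.46-fold) were also lower in midbrain, while Gadd45g was 1.52-fold higher there. Of Apold1, Klf2 and Dusp1, none passed the test between these regions.

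Between saline midbrain and saline striatum 5 of the 10 were called, where 58.3% of all genes were. Nr4a1 (4.75-fold), Arc (4.46-fold), Npas4 (2.98-fold) and Gadd45b (2.04-fold) were lower in midbrain, and Ier2 was 1.45-fold higher. Between saline striatum and saline frontal cortex 2 of the 10 were called, against 44.1% of all genes. Ier2 was 2.12-fold lower in striatum, at 6.07 ± 0.12 against 7.15 ± 0.16 in frontal cortex (adjusted p = 4.24e-05, limma), and Gadd45g was 1.39-fold higher. Arc, Npas4, Nr4a1, Dusp1, Btg2, Gadd45b, Apold1 and Klf2 did not pass the test between striatum and frontal cortex, and for Arc the 95% interval of that difference ran from -1.5 to 0.73.

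Related inducible genes gave a mixed picture. Of 9 Egr, Fos and Jun genes tested, Egr2, Egr4 and Egr1 fell in striatum and 0 rose, and on the mean over regions Egr2, Egr4, Egr1 and Fos fell and Egr3 rose. Fos fell by 0.94 on the log2 scale on that mean (SE 0.27, adjusted p = 0.0319, limma). On MPTP arrays 1, 2 and 3 Fos was 7.19, 8.69 and 9.22 in frontal cortex and 5.26, 7.50 and 7.62 in striatum. In midbrain it was 7.41, 8.56 and 8.89, so that array 1 was the lowest of the MPTP arrays in each region. Saline arrays ran from 8.90 to 9.19 in frontal cortex, 7.98 to 8.75 in striatum and 8.54 to 9.35 in midbrain. The Fos difference without the MPTP arrays numbered 1 is not given here. In midbrain Egr3 rose, by 0.56 ± 0.11 (adjusted p = 0.0107, limma). Both midbrain group means of Egr3, 5.08 in MPTP and 4.51 in saline tissue, lay below the filter value of 5.195. Only MPTP array 2 lay above that value, at 5.25, so the midbrain values of Egr3 carry little information. Of 41 other activity-induced genes tested, Dusp14 and Srf fell and Ier3 rose in striatum, and Gadd45a, Dusp14 and Srf fell and Ier3 rose on the mean over regions. Of all genes tested, 0.811% were called lower and 1.3% higher in striatum, and 2.16% higher in midbrain. On the mean over regions 2.43% were called lower and 6.62% higher. Gadd45a, the third gene of the Gadd45 family, fell by 0.36 on that mean (SE 0.08, adjusted p = 0.00722). Srf encodes serum response factor, and Ier3 a stress-induced regulator of apoptosis. The median of the 41 genes on the mean over regions was -0.07 against 0.01 over all genes tested.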

How the data were processed

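RNA of 18 samples was measured on Affymetrix arrays, per the labels. The deposited log2 expression values per probe set are the authors' RMA output, per the submitters' processing notes, and the version is not given in the sources used here. Because RMA equalises the arrays, a shift common to all genes would be hidden. That the scale is log2 was judged from its span, 2.48 to 14.2. Symbols of 34754 probe sets were looked up by Entrez ID in the GRCm38.p6 annotation, used for names.

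A gene's probe set of highest mean stood for the gene. Genes with a regional mean at or above 5.195, the median over probe sets, were tested: 11710, all 10 members among them. Limma 3.58.1 (R 4.3.3), with an intensity trend, fitted 6 group means. Benjamini-Hochberg adjustment ran within each contrast, with a threshold of 0.05. For the mean over regions a random block joined arrays of equal treatment and number. Its correlation, 0.00576, was a single value over all genes tested, so arrays sharing a number entered as nearly independent. A stronger correlation in single genes was not modelled by it. Single arrays were left out in turn, and the filter, normalization, probe set rule, trend, blocks and arrays used were varied. The fit was tested on simulated data.

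The members, lists and comparisons were chosen with earlier results of these data known. Besides the 10 members, up to 4 genes per list and contrast are named, called ones first, then by p. For each member the 3 genes most correlated with it are named, with predicted genes (Gm numbers, Rik and LOC names) passed over. Fos was named after its value was seen. Precision is limited by having 3 arrays per group, and where replicates are not separate animals the p-values measure only the spread between samples. Same-numbered MPTP and saline arrays had correlations of deviations between -0.195 and 0.294, so the numbers were not taken as pairs.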

Additional observations from a re-analysis of the deposited data

How the results depend on the processing

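Over 260 gene results, 6900 of 7253 comparisons with an alternative kept the side of the threshold, 225 lost a call and 128 gained one. In 129 comparisons an uncalled value changed sign. The mean over regions of Gadd45g and Apold1 stayed called in every alternative that tested them, and the filter at the 75th percentile tested neither. Signal limits what can be said of Npas4 and of Egr3 in midbrain, where their group means lay below the filter value. The settings that leave out chosen arrays or average them over regions, and the test of every probe set, were added after seeing the data.

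Each value is a count of genes called. With no filter, 4 were called for the striatum minus frontal cortex response. With the filter at the 75th percentile, 5 of the 10 members were tested: 0 were called in striatum, 0 in midbrain, 1 on the mean over regions, and 4, 3 and 1 for saline midbrain minus frontal cortex, midbrain minus striatum and striatum minus frontal cortex. Of all genes this filter left 5 in frontal cortex, 0 for the striatum minus frontal cortex response and 3 for the midbrain minus striatum response. A second quantile normalization gave 751 in striatum, 728 in midbrain, 4 in frontal cortex, 1983 on the mean over regions, 21 for the striatum minus frontal cortex and 22 for the midbrain minus striatum response. Centring on the array median gave 2 in frontal cortex. Averaging all probe sets of each gene gave 134 in striatum, 68 in midbrain, with 0 members, 1 in frontal cortex and 4 for the striatum minus frontal cortex response. Without the intensity trend, 162 were called in striatum, 153 in midbrain, with 0 members, and 0 in frontal cortex. Fitting only the arrays of the regions compared gave 36 in frontal cortex and 13 for the striatum minus frontal cortex response. Every probe set tested on its own gave 777 probe sets in midbrain, 24 in frontal cortex, 2450 on the mean over regions, and 10760, 12232 and 14708 for saline striatum minus frontal cortex, midbrain minus frontal cortex and midbrain minus striatum.

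With the replicate block, 3 members were called in striatum (Gadd45g, Apold1 and Klf2) and 2 in midbrain (Gadd45g and Klf2). On the mean over regions 7 were called (Arc, Nr4a1 and Dusp1 joining the 4). Of all genes, that setting called 324 in striatum, 357 in midbrain, 17 in frontal cortex and 1721 on the mean. The numbers are not known to pair the arrays. Leaving out, per region, the saline array with the smallest interquartile range, 3 members were called in striatum, among 223 genes there. Of all genes, 111 were called in midbrain, 0 in frontal cortex, 4 for the striatum minus frontal cortex and 13 for the midbrain minus striatum response. Without the 3 MPTP arrays numbered 1, 0 members were called in striatum, 0 in midbrain and 2 on the mean, with 52 genes in striatum, 184 in midbrain, 0 in frontal cortex, 601 on the mean and 4 for the striatum minus frontal cortex response. The cause of these changes was not tested.

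Leaving out 1 array at a time, the genes called ran from 69 to 414 in striatum, 12 to 957 in midbrain, 0 to 14 in frontal cortex and 424 to 1527 on the mean. They ran from 3 to 11 for the striatum minus frontal cortex, 0 to 10 for the midbrain minus frontal cortex and 7 to 14 for the midbrain minus striatum response. The members called ran from 0 to 3 in striatum, 0 to 2 in midbrain and 2 to 5 on the mean, and 0 were called in frontal cortex throughout.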
